A study of Oryza sativa with 8 samples.

Results

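The tapetum is the innermost layer of the anther wall. It feeds the developing microspores and secretes the lipids and proteins from which the pollen wall and the anther cuticle are built. Lipid transfer proteins carry lipid molecules across the watery anther locule, and Ubisch bodies are small particles on the tapetal surface through which wall material is delivered. Genes of this kind are known to be switched on in a limited window of anther development and to go silent when the tapetum breaks down.

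The 4 genes described here belong to that secretory machinery. They are the lipid transfer protein genes OsC6 (Os11g0582500) and OsC4 (Os08g0546300), the anther gene YY1 (Os09g0525500) and RAFTIN (Os08g0496800), which encodes a protein of the Ubisch bodies. They were taken by identifier from a table of 30154 gene names, and all 4 were present, in 7 rows. The genes were chosen by their known role with their FPKM levels in the 4 groups already seen, so they count as selected on those levels, and their levels and changes are a description with no test.

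The study measured messenger RNA by sequencing in indica rice of the cultivar Pusa Basmati 1 (PB1). Its groups were nrpd1 knockdown anther, WT anther, nrpd1 knockdown pre-emerged panicle and WT pre-emerged panicle, with 2 libraries each in the labels, or 8 in all. NRPD1 is the largest subunit of RNA polymerase IV, a plant polymerase that makes precursors of the small RNAs that guide DNA methylation. Anthers were collected before dehiscence, and knockdown and WT plants were raised alike in a greenhouse. The knockdown construct and the number of plants or lines behind a group are not given in the sources used here, and no row of the table could be tied to NRPD1 by name, so the knockdown itself was not checked. How far a panicle had grown when it was sampled is not given either.

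The table holds 1 FPKM value per gene and group (sequenced fragments divided by transcript length and by the size of the library). No value has a replicate beside it, so no difference below could be set against the spread between replicates and no p-value is given. Summed FPKM per group lay between 341703 and 636692, and between 16507 and 17313 genes reached 1 FPKM. The read depth is unknown. Changes are differences of log2(FPKM + 1), knockdown minus WT or anther minus panicle. For genes with low levels this scale gives too small a change. Comparisons were limited to genes for which at least 1 of the groups reached 1 FPKM, and a gene was counted as higher or lower at a difference of at least 1, a doubling on that scale.

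As deposited, knockdown panicle held the highest level of all 4 genes, and WT panicle the lowest level of OsC6, YY1 and RAFTIN. For RAFTIN that order depended on the scaling between columns, since knockdown anther was above knockdown panicle by 0.11 on the log2(FPKM + 1) scale with quantile normalization, and WT anther was below WT panicle, at -0.052, with equal totals (every column scaled to the same summed FPKM). The genes fell into 2 patterns across the groups. OsC6 and RAFTIN were abundant in both knockdown tissues and low in both WT tissues. YY1 and the row that carries the OsC4 identifier alone exceeded 1 FPKM only in knockdown panicle, YY1 at a modest 14.5 FPKM and OsC4 at 130.05 FPKM. Both were under 1 FPKM in the other 3 groups. A joined row at the OsC4 locus, described below, stood between 6.76 and 17.0 FPKM in the 4 groups, so this pattern of OsC4 is uncertain. Among the 20322 genes that reached 1 FPKM in any group, 5823, or 28.7%, also had their highest level in knockdown panicle.

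**Figure D1:**
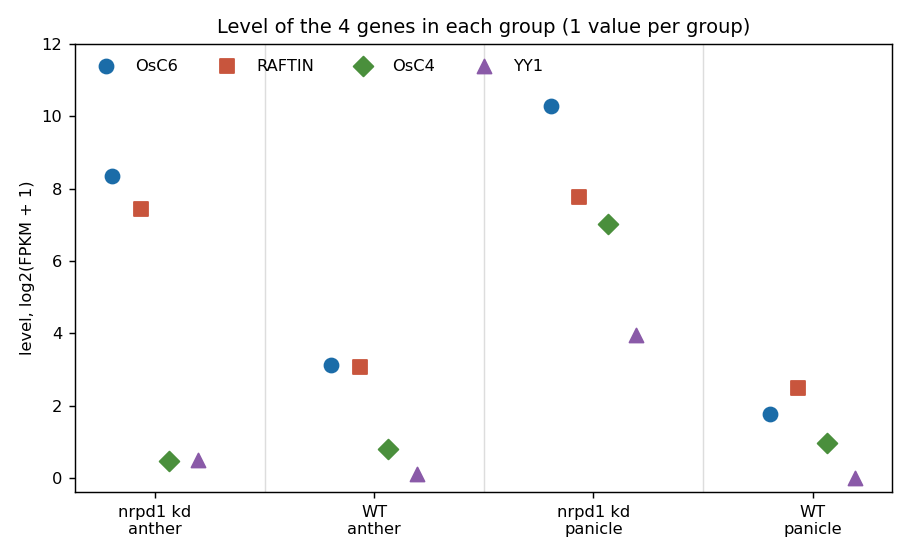
Level of OsC6, RAFTIN, OsC4 and YY1 as log2(FPKM + 1) in nrpd1 knockdown anther, WT anther, nrpd1 knockdown panicle and WT panicle, with 1 point per gene and group and no error bars because each group has 1 value. OsC6 and RAFTIN stand high in both knockdown groups, whereas OsC4 and YY1 exceed 1 FPKM in knockdown panicle alone among these 4 groups. OsC4 is plotted from the row of its identifier alone, without the joined row at its locus.

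OsC6 encodes a lipid transfer protein that rice tapetum secretes toward the locule and the anther cuticle. It lies on chromosome 11, 22016847 to 22018498 in the table's coordinates (build not stated). Its level was 327 FPKM in knockdown anther, against 7.71 FPKM in WT anther. In panicle it was 1250.4 FPKM in the knockdown and 2.42 FPKM in WT. Both knockdown values were above both WT values. OsC6 was thus 42.4-fold higher in knockdown anther, a log2(FPKM + 1) change of 5.23, and 516-fold higher in knockdown panicle, a change of 8.51. Ordered by change from the highest, these were place 12 of 17943 genes compared in anther and place 2 of 18655 in panicle. By level, OsC6 ranked 77 among all gene names in knockdown anther and 8788 in WT anther. It ranked 15 in knockdown panicle, where it made up 0.292% of summed FPKM, and 14014 in WT panicle.

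RAFTIN encodes a tapetal protein with a BURP domain that accumulates in Ubisch bodies and reaches the pollen wall, as known from wheat and rice. The gene lies on chromosome 8, 24533159 to 24535093. Its level was 171 FPKM in knockdown anther and 7.33 FPKM in WT anther. In panicle it was 218 FPKM in the knockdown, against 4.60 FPKM in WT. As for OsC6, neither WT value came near a knockdown value. The gene was 23.3-fold higher in knockdown anther, a log2(FPKM + 1) change of 4.37, and 47.5-fold higher in knockdown panicle, a change of 5.29. Each change was at place 25 from the highest in its tissue.

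OsC4, the second lipid transfer protein gene, is known as a tapetum gene of rice. It lies on chromosome 8, in a locus from 27363983 to 27370823. Its own row stood at 0.392 FPKM in knockdown anther and 0.743 FPKM in WT anther, both too low to be compared. In panicle its level was 130.05 FPKM in the knockdown, against 0.949 FPKM in WT. The gene was 137-fold higher in knockdown panicle, a log2(FPKM + 1) change of 6.07, at place 13 from the highest. Knockdown panicle was the single group in which this row exceeded 1 FPKM.

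The OsC4 locus also carried a row under the joined name Os08g0546300,Os08g0546467, whose reads cannot be divided between these identifiers, and a row of a further name. The joined row was at 13.5 FPKM in knockdown anther and 17.0 FPKM in WT anther. In panicle it was at 15.0 FPKM in the knockdown and 6.76 FPKM in WT. Between knockdown and WT panicle its change was 1.05, and it was higher in WT anther than in WT panicle by 1.22, but neither difference passed the threshold with equal totals, at 0.91 and 0.54. The panicle change of the row that carries the OsC4 identifier alone was 6.07 as deposited and 6.02 with equal totals. With both rows added together the panicle change of OsC4 was 4.07. Because the rows share a locus, the level of OsC4 is uncertain in the groups where its own row is low.

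YY1, known from rice as an anther gene expressed in the tapetum, was the weakest of the 4 genes in WT anther and in both panicle groups. It lies on chromosome 9, 20534164 to 20534903, and fills 1 row. Its level was 0.411 FPKM in knockdown anther and 0.0713 FPKM in WT anther, both under the minimum for a comparison. In panicle it was at 14.5 FPKM in the knockdown and is listed at 0 in WT, so no fold is given. The difference of log2(FPKM + 1) was 3.95, a size that depends on the value added before taking logarithms. YY1 ranked 5749 by level in knockdown panicle, far behind OsC6, RAFTIN and OsC4.

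In anther, 2 of the 4 genes could be compared between knockdown and WT and both were higher, with a median change of 4.80. Over all 17943 genes compared there, 7.37% were higher and 17.6% lower, and the median change was -0.15. That split moved with the scaling between columns, from 1323 higher and 3164 lower as deposited to 5098 higher and 1296 lower when totals were made equal, where the median change of all genes was 0.60. Measured against the median of all genes, OsC6 changed by 5.39 as deposited and by 5.47 with equal totals, and RAFTIN by 4.52 and 4.60. In panicle all 4 genes were compared and were higher, with a median of 5.68, beside 13.2% of 18655 genes higher, 10.7% lower and a median of -0.03. Nothing is read from these counts against the shares of all genes, because the genes were chosen with these values known. Each value is that of bulk tissue, in which fewer cells of a type and less RNA per cell cannot be told apart.

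**Figure D2:**
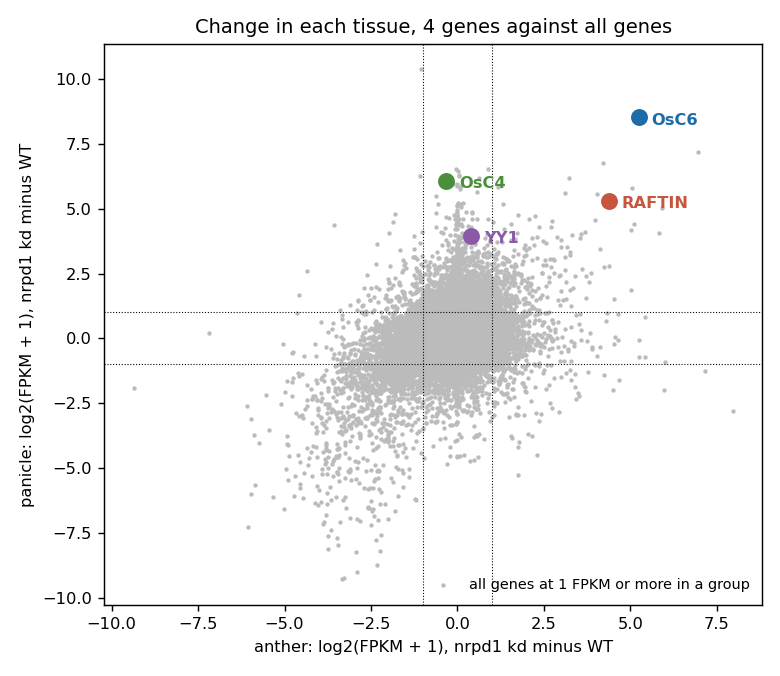
Change of log2(FPKM + 1), nrpd1 knockdown minus WT, in anther (x axis) and in panicle (y axis), with the 4 genes as large coloured points, all genes that reached 1 FPKM in any group as small grey points, and dotted lines at a change of 1 in either direction. OsC6 (5.23 and 8.51) and RAFTIN (4.37 and 5.29) lie far out on both axes, and OsC4 (6.07 in panicle) and YY1 (3.95 in panicle) on the panicle axis.

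Being higher in the knockdown of both tissues by at least 1 was, as deposited, a property of 336 genes, or 1.65% of the 20322, and OsC6 and RAFTIN were among them. At a change of at least 4 in both tissues 10 genes were left, again with OsC6 and RAFTIN. Neither count was made with equal totals, which moved the genes higher in knockdown anther from 1323 to 5098. As deposited, the change was larger in panicle than in anther for each of the 4 genes. The difference was 3.28 for OsC6, 6.40 for OsC4, 3.55 for YY1 and 0.92 for RAFTIN. For OsC4 this is the row of its identifier alone, and the joined row at its locus differed by 1.36. With both rows added, OsC4 changed by -0.33 in anther and 4.07 in panicle. For RAFTIN the larger change in panicle did not hold with equal totals, where its change was 5.19 in anther and 5.17 in panicle. These differences between tissues have no test, and the 6.40 of OsC4 and 3.55 of YY1 rest on anther values under 1 FPKM.

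Between the tissues of the knockdown, OsC6, OsC4 and YY1 were lower in anther than in panicle, by -1.93, -6.56 and -3.45 on the log2(FPKM + 1) scale. With its joined row added, the difference of OsC4 was smaller, at -3.29. RAFTIN differed by -0.35, short of the threshold and of the opposite sign, 0.11, with quantile normalization. Of 18958 genes compared, 22.5% were lower in anther and 14.0% higher, or 4261 against 2653 genes, and equal totals turned this to 3631 lower and 3747 higher. In WT, OsC6 was higher in anther than in panicle by 1.35, a difference that fell short of the threshold with equal totals, at 0.74. RAFTIN differed by 0.57 in WT, or by -0.052 with equal totals. YY1 and the row of the OsC4 identifier alone were too low for a comparison. With its joined row added, OsC4 was higher in WT anther by 1.11, but the joined row itself fell to 0.54 with equal totals. Among 18935 genes compared in WT, 20.4% were higher in anther and 18.1% lower, or 3856 against 3429 genes, and 2124 against 5999 with equal totals.

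The rows themselves gave a further view of OsC6 and RAFTIN, each of which fills 2 rows at 1 locus. The fainter row of OsC6 held 2.29% of the stronger row in knockdown anther and 3.31% in WT anther. For the panicle groups that share was 2.10% in the knockdown, and the fainter row is listed at 0 in WT. For RAFTIN the share was 2.29% in knockdown anther and 1.33% in WT anther, and 2.18% in knockdown panicle and 3.29% in WT panicle. Nearly all of the signal of both genes thus came from 1 row, and both rows of each gene were higher in the knockdown. What sets the rows apart is not stated in the table.

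Likeness of pattern was measured as the Euclidean distance between profiles of log2(FPKM + 1) over the 4 groups, each centred on its own mean, so that a small distance means a similar pattern. Among the 4 genes, OsC4 and YY1 were closest, at 2.31, followed by OsC6 and RAFTIN at 2.39. OsC4 was taken from the row of its identifier alone. Both OsC4 and YY1 were under 1 FPKM in all groups but knockdown panicle, and values that low lie close together on this scale. OsC6 and OsC4, both lipid transfer protein genes, were the farthest apart, at 5.28. Among 10689 genes that reached 10 FPKM in some group, the most similar to RAFTIN was Os02g0535300, at a distance of 0.61. It stood at 159 FPKM in knockdown anther and 3.81 FPKM in WT anther, and at 184 FPKM in knockdown panicle and 2.29 FPKM in WT panicle. The next was Os10g0148000, at 0.89.

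For OsC6 the most similar genes were Os08g0566000, at 1.43, and Os10g0147900, at 1.64. Os10g0147900 and Os10g0148000 are listed at the same locus, so that locus appeared beside both OsC6 and RAFTIN. Os08g0566000 was at 40.5 FPKM in knockdown anther and 1.23 FPKM in WT anther. The same gene stood at 134 FPKM in knockdown panicle and 0.233 FPKM in WT panicle. The distances for OsC6 were larger than those for the other 3 genes.

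OsC4 had close matches in Os01g0252400, at 0.35, and Os04g0310900, at 0.38. Os01g0252400 is listed at 0 in both anther groups and stood at 94.8 FPKM in knockdown panicle and 0.559 FPKM in WT panicle. Os04g0310900 stood at 86.0 FPKM in knockdown panicle and is listed at 0 in WT panicle. The closest matches of YY1 were Os08g0545850, at 0.28, and Os03g0640000, at 0.29, with 21.6 and 20.3 FPKM in knockdown panicle and under 1 FPKM elsewhere. Os08g0545850 (chromosome 8, 27332780 to 27333976) lies 30007 bases from the OsC4 locus. All of these patterns are over 4 values each. The matches of OsC4 and YY1 reached 10 FPKM in knockdown panicle alone, and their likeness rests largely on shared low values in the other groups.

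Neighbouring loci were followed at each gene, 5 on each side. Where a locus carried several names, the name with the highest summed FPKM over the groups stood for it. Around OsC6 the 7 neighbours compared in anther changed by between -1.13 and 0.58, and the 7 compared in panicle by between -0.69 and 1.59. Around RAFTIN the range was -1.75 to 0.58 in anther and -2.73 to 1.55 in panicle. Neither gene had a neighbour that was higher in the knockdown of both tissues. At YY1, 3 of 10 neighbours compared in panicle were higher in the knockdown, the largest change being 1.68.

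The OsC4 neighbourhood had the most changes in panicle, where 4 of 10 neighbours were higher and none of the 10 was lower. The largest were those of Os08g0545850, at 4.33, and of Os08g0546900, named here after its values were seen, at 2.99. Os08g0546900 was at 12.7 FPKM in knockdown panicle and 0.730 FPKM in WT panicle. Over the neighbours of all 4 genes, 9 of 35 compared in panicle were higher, or 25.7%, beside the 13.2% of all genes, and 1 of 32 compared in anther was higher. The neighbours were 1 name per locus, chosen by level, whereas the share of all genes is over every name. No test was made of these shares.

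**Figure D3:**
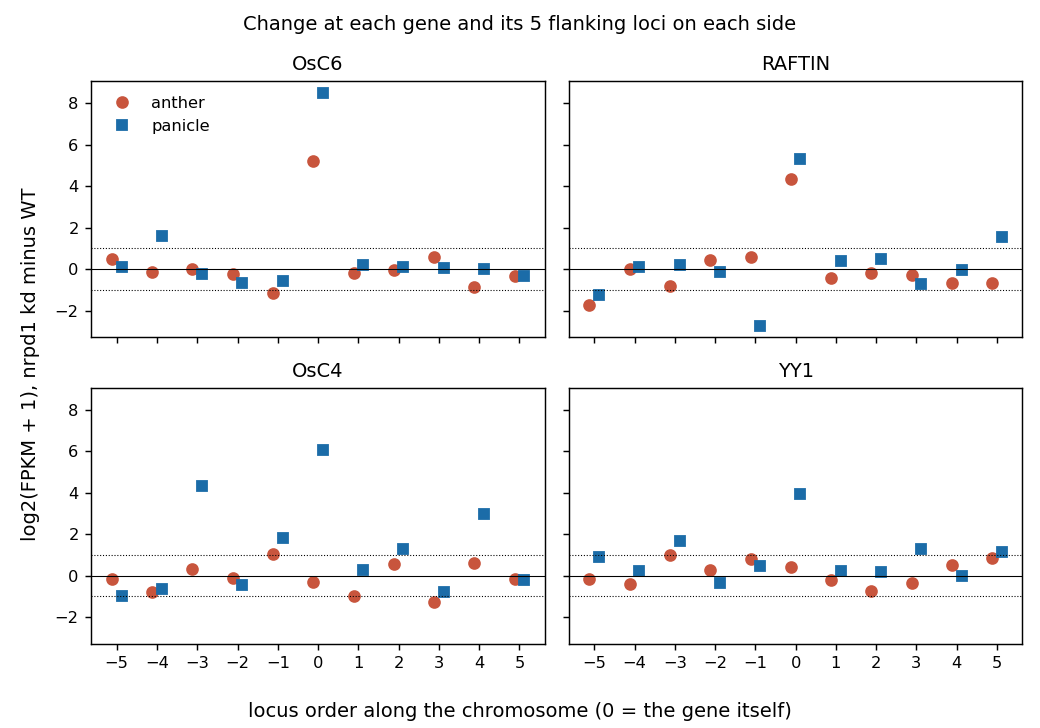
Change of log2(FPKM + 1), nrpd1 knockdown minus WT, in anther (circles) and panicle (squares) for each of the 4 genes (position 0) and the 5 loci on each side, in order along the chromosome, with dotted lines at 1 and -1. OsC6 and RAFTIN stand alone above their neighbours in both tissues, whereas at OsC4 a panicle change of 4.33 lies 3 loci away and one of 2.99 lies 4 loci away.

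Other anther genes were followed as lists to place these levels. Identifiers were put on the lists from general knowledge of rice genes, and neither the table nor the RefSeq gene table pairs them with symbols, so they are given by identifier. The counts below stand beside the shares of all genes compared, which were 7.37% higher and 17.6% lower in anther and 13.2% higher and 10.7% lower in panicle, or with equal totals 28.4% and 7.22% in anther and 11.6% and 12.9% in panicle. Lists this short are described only, and nothing particular to a list is read from its count. Of 6 tapetum regulators (transcription factors and related nuclear proteins that direct tapetum development), 4 were compared in anther. One of these, Os04g0599300, was higher in the knockdown and none was lower, with a list median of 0.19, and 2 were higher with equal totals. In panicle 4 of 5 compared were higher, or 3 with equal totals, with a median of 1.27, beside 13.2% of all genes. Of these, Os07g0549600 was only just past the threshold, at 1.01. Os09g0449000 was near the minimum for a comparison, at 1.58 FPKM in knockdown panicle and 0.069 FPKM in WT panicle. Os04g0599300 had the largest change of the list in both tissues, with 12.3 FPKM in knockdown anther and 3.30 FPKM in WT anther. In panicle it stood at 10.1 FPKM in the knockdown and 0.923 FPKM in WT. The changes of 1.63 in anther and 2.52 in panicle were smaller than those of OsC6 and RAFTIN.

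Sporopollenin genes make and export the polymer of the outer pollen wall. Of 11 listed, 8 had a row of their own, 2 were joined with other names and 1 was not matched. None of the 2 compared in anther passed the threshold as deposited, and 1 was higher with equal totals. In panicle 2 of 4 compared were higher, beside the same 13.2%, with a median of 0.88. The larger of these changes was 1.13, for Os03g0168600, at 1.18 FPKM in knockdown panicle and listed at 0 in WT panicle. The other was 1.09, for a gene at 1.21 FPKM in knockdown panicle and 0.034 FPKM in WT panicle. Both genes were thus near the minimum for a comparison and only just past the threshold. In anther the largest was 0.47, for Os10g0484800, at 4.89 FPKM in the knockdown and 3.24 FPKM in WT. The sum over the 8 genes with rows of their own lay between 6.34 and 12.8 FPKM in the 4 groups. That was far under the level of OsC6 in either knockdown tissue, but the genes joined with other names are not in the sum.

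Of 3 proteases of tapetum breakdown, 2 had rows of their own and 1 was joined with other names. In anther only Os03g0186900 was compared, because Os04g0670500 was under 1 FPKM in both anther groups. It did not pass the threshold there, and neither gene passed in panicle, where both were compared. Their largest changes were -0.19 for Os03g0186900 in anther and 0.57 for Os04g0670500 in panicle. Of 8 meiosis genes, 7 had rows of their own. In anther 2 of 4 compared were higher in the knockdown as deposited, beside 7.37% of all genes, and 3 under each of the other scalings, the largest change being 1.21 for Os12g0143800. In panicle none of 4 passed, and the largest of those changes was 0.74, for Os03g0800200. The summed level of the 7 meiosis genes with rows of their own was 18.2 FPKM in knockdown anther and 11.7 FPKM in WT anther. For panicle the same sum was 8.83 FPKM in the knockdown and 7.74 FPKM in WT.

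Of 5 listed genes of late pollen, 4 were compared and all 4 were lower in the knockdown of both tissues, beside 17.6% of all genes lower in anther and 10.7% in panicle. With equal totals 3 of the 4 passed in anther, where 7.22% of all genes were lower. The fifth, Os03g0106500, was under 1 FPKM in every group. The list median was -2.32 in anther and -1.80 in panicle. Os10g0548600, which dominates the list, stood at 1322 FPKM in knockdown anther and 9842 FPKM in WT anther. In panicle it was at 0.168 FPKM in the knockdown and 594 FPKM in WT. The summed list was 1342 FPKM in knockdown anther and 9937 FPKM in WT anther. In panicle the sum was 0.472 FPKM in the knockdown and 602 FPKM in WT, with 1 gene listed at 0 in knockdown panicle. Within each tissue, the 4 compared genes were thus lower in the knockdown where OsC6 and RAFTIN were higher. A difference in anther stage or cell make-up between the groups was not tested as a part of these results.

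**Figure D4:**
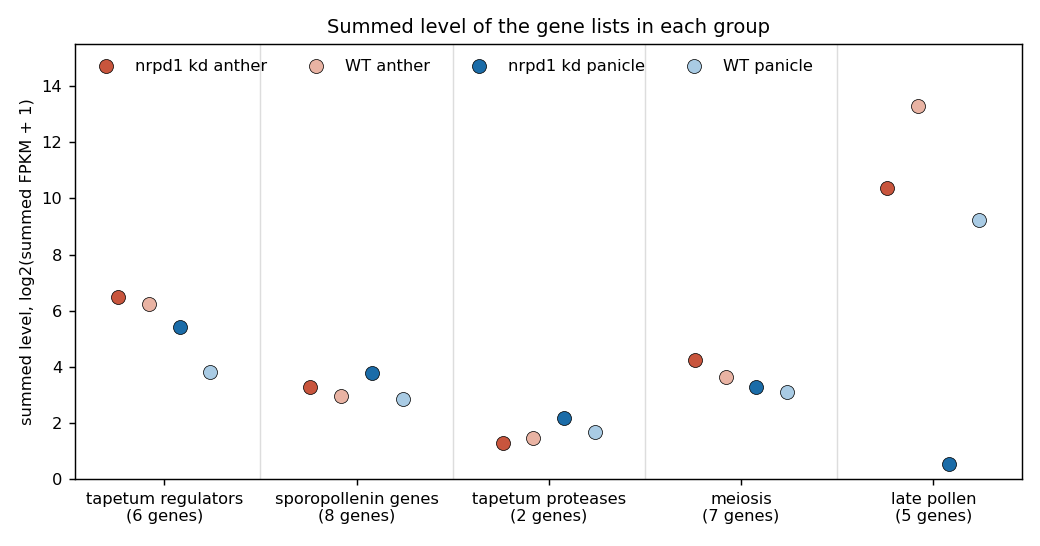
Summed level of each gene list, as log2(summed FPKM + 1), in nrpd1 knockdown anther, WT anther, nrpd1 knockdown panicle and WT panicle, over the listed genes with a row of their own. The late pollen list is lower in the knockdown than in WT in both tissues (1342 against 9937 FPKM in anther, 0.472 against 602 FPKM in panicle), whereas the sum of the tapetum regulators is highest in the anther groups. That sum comes mostly from Os01g0812000 and Os02g0120500. Os09g0449000 is the only regulator highest in a panicle group, at 1.58 FPKM in knockdown panicle.

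The level in WT panicle relative to WT anther also differed among these genes. The 4 late pollen genes that were compared stood in WT panicle at between 6.04% and 9.58% of their WT anther level. OsC6 stood at 31.4% and RAFTIN at 62.7% on the same measure. The tapetum regulators that were compared in anther stood at between 14.8% and 28.0%. Equal totals raise all of these percentages by 1 factor, to between 10.05% and 15.9% for late pollen, 52.3% for OsC6, 104% for RAFTIN and between 24.7% and 46.6% for the regulators, so the order of the items is unaffected by that scaling while their size depends on it. Other lists overlapped OsC6 and RAFTIN as deposited. The 2 sporopollenin genes compared in anther stood at 34.4% and 155%, and the protease compared there at 85.1%. The 4 meiosis genes compared in anther stood at between 23.4% and 142%. The percentages of OsC6 and RAFTIN were thus not particular to them. In the knockdown, panicle held 383% of the anther level for OsC6 and 128% for RAFTIN, or 305% and 102% with equal totals.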

How the data were processed

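Libraries were directional RNA-seq libraries from total RNA, per the labels' protocols. The authors deposited FPKM values, 1 column per group, per the file headers, and how the 2 libraries of a group were combined is not stated. Trimmomatic, HISAT2 and Cufflinks 2.2.1 are named in the submitters' processing notes. The genome build and annotation are not given in the sources used here. Cufflinks divides fragments between overlapping models, so values of joined or overlapping loci are uncertain.

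Rows of 1 gene name were summed. OsC4 was read from the row with its identifier alone. Differences of log2(FPKM + 1) were taken over all genes with at least 1 FPKM in either group, with a threshold of 1. A limma model had been foreseen for values per library and could not be fitted. Genes named for likeness were the 2 nearest to each of the 4 genes among those with at least 10 FPKM in a group, and from each list the gene with the largest change in each tissue. The members and lists were chosen with earlier results of these data known. None of the 4 identifiers, and none of the 33 on the lists, is in the RefSeq gene table (assembly ASM3414082v1). That table carries the names OsC6, OsC4 and OsRAFTIN1 without these identifiers.

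Alternatives were a pseudocount of 0.1, other filters, 3 scalings, single rows, a threshold of 2 and, added after the data were seen, the joined OsC4 row. Calculations used Python 3.11.15, numpy 2.4.6, pandas 2.3.3 and matplotlib 3.10.9. The calling step was run on simulated data with an assumed standard deviation of 0.2 on the log2 scale. Since the data hold no replicate values to set that spread, this check of the code gives no rate of false calls for them.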

Additional observations from a re-analysis of the deposited data

Results flagged for a closer look

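OsC4 had a log2(FPKM + 1) difference, knockdown minus WT, of -0.32 in anther and 6.07 in panicle, and is listed for these opposite signs. The anther value rests on 0.392 FPKM in the knockdown and 0.743 FPKM in WT, both too low for a comparison, and was -0.0076 with equal totals, so no lower level in knockdown anther is shown. The joined row Os08g0546300,Os08g0546467 at the same locus had values of -0.31 in anther and 1.05 in panicle as deposited. With equal totals they were 0.53 and 0.91, so the opposite signs did not hold under that scaling. Neither anther difference reached the threshold of 1, and with 1 value per group the difference between tissues was not tested.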

How the results depend on the processing

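No paired analysis was possible because replicate libraries have no columns of their own, and for the same reason no library could be left out. The knockdown changes of OsC6 ran from 5.23 to 6.06 in anther and from 8.41 to 8.95 in panicle over all alternatives, and those of RAFTIN from 4.35 to 5.19 and from 5.17 to 5.54. In panicle OsC4 ran from 4.07 to 6.96 and YY1 from 3.92 to 7.19. YY1 in anther was 1.58 with a pseudocount of 0.1, on values under 1 FPKM. Equal totals gave 0.74 for OsC6 and -0.052 for RAFTIN between WT anther and WT panicle. RAFTIN between the knockdown tissues was 0.11 with quantile normalization. OsC4 between the WT tissues was 1.11 with its joined row added. The joined row itself was 0.0069, 0.039 and 0.16 between the knockdown tissues with median centring, quantile normalization and equal totals, and 0.53 in anther with equal totals. The cause was not tested.

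For all genes, a pseudocount of 0.1 gave 2310 higher in knockdown anther. A mean of at least 5 FPKM, which tests fewer genes, left 756 genes higher with the knockdown in anther and 1455 in panicle, 1670 higher and 2490 lower in anther than in panicle of the knockdown, and 1941 lower in anther than in panicle of WT. Equal totals gave 5098 higher and 1296 lower in knockdown anther, and for the WT tissues 2124 higher and 5999 lower in anther. A threshold of 2 left 245 higher and 942 lower in knockdown anther, 778 and 691 in knockdown panicle, 1024 and 1811 in anther relative to panicle of the knockdown, and 1477 and 1248 in anther relative to panicle of WT. The filter on low values cannot alter these counts at a pseudocount of 1, so equal counts without it show no stability. YY1 has no value under the mean filter. FPKM carries no read depth, so no limit of detection is given for YY1 or OsC4.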
